A study of Mus musculus with 2 samples.

Results

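Replication-dependent histone genes supply the histones that package newly copied DNA. The 64 members were the protein-coding rows of both gene tables whose symbol starts with Hist1h, Hist2h, Hist3h or Hist4, out of 43346 Ensembl gene rows and 21461 nuclear protein-coding genes. They comprised 6 H1, 18 H2A, 15 H2B, 12 H3 and 13 H4 genes. Hist1h2bh, Hist1h2bm and Hist2h2bb, 3 further H2B genes of the annotation, were not analysed here, so every H2B sum leaves them out.

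The RNA came from megakaryocyte-erythroid progenitors (MEP), bone marrow cells that can give rise to red cells and megakaryocytes. The mice were male C57BL/6J of 5 to 6 weeks, with no genetic change or treatment in the labels. There was 1 group of 2 libraries, biological replicates 1 and 2, each prepared with ScriptSeq from 100 ng of RNA after removal of ribosomal RNA, with size ranges of 200 to 1000 and 215 to 1000 in replicates 1 and 2 (unit not stated). The biosample entries differ and the donor entry is shared, so whether separate mice gave the cells is not stated. With 1 library per replicate number there is no test between the libraries, and each SD below (n = 2) measures only the spread between them, which may be technical.

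In most cell types these genes are transcribed at the onset of DNA synthesis and their mRNAs are degraded when it ends. Unlike other mRNAs they usually carry no poly(A) tail: their ends are formed at a short stem-loop, which is bound by the stem-loop binding protein Slbp and cut with the help of the U7 snRNP. Total RNA depleted of ribosomal RNA keeps such transcripts, whereas selection for poly(A) would lose most of them. In the erythroid lineage, rapid divisions precede the final condensation of the nucleus, and new histones are needed at each division.

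The stem-loop was searched in the member transcripts of GENCODE M21 (mouse assembly GRCm38, also called mm10), as 16 bases with a 6-base stem that starts with GG and ends with CC around a 4-base loop. It was found in 44 of the 64 members, 24 to 61 bases after the stop codon (median 34.5), in 8 distinct versions. The lines below show 6 of the versions, including those of the leading H2A, H2B, H3 and H4 genes, 5′ to 3′ on the coding strand, with the stem-loop in capitals and up to 5 bases on either side in lower case.
Hist2h2aa1 (chr3:96246032-96246047, plus strand): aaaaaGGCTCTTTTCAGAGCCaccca
Hist2h2ac (chr3:96220418-96220433, minus strand): aaaaaGGCTCTTTTTAGAGCCaccaa
Hist1h2bb (chr13:23747203-23747218, plus strand): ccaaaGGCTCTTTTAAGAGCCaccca
Hist1h3b (chr13:23752820-23752835, plus strand): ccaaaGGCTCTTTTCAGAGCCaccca
Hist1h3g (chr13:23535889-23535904, plus strand): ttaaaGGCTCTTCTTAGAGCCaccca
Hist1h4d (chr13:23581950-23581965, plus strand): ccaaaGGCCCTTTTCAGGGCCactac
Hist1h4j (chr13:21735437-21735452, plus strand): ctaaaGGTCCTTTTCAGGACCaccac

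All 32 stem-loops outside H4 had the stem GGCTCT. None of the 12 in H4 had it: 10 had GGCCCT and 2 had GGTCCT, both of which pair with a matching change on the other side of the stem. The loop was TTTC in 33 of the 44. In the other 20 members no perfect match was found in the transcript; 14 members have a reference transcript that ends at most 5 bases after its coding sequence, so no match says only that these letters are not in the annotated sequence. The 44 members with a stem-loop held a summed TPM of 9208 in replicate 1 and 10502 in replicate 2 (TPM is the deposited share of all transcripts, scaled by effective length), out of 12159 and 13855 for all members.

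Most members were detected, several of them among the genes of highest level per length. The members took 331468 of 39919858 expected counts in replicate 1 (0.830%) and 549972 of 48043009 in replicate 2 (1.14%), a mean of 0.988% ± 0.222 (SD, n = 2). With detection defined as a level of 1 TPM or more in each library, 57 of the 64 members were detected, or 89.1%, against 39.4% of all nuclear protein-coding genes. In both libraries 28 members exceeded a TPM of 100. Among nuclear protein-coding genes ranked by mean TPM, 12 of the top 100 were members, and by counts per annotated length 6 were. Both rankings depend on length because the members are short (median annotated length 483.5 bases against 1953.86), and the effective length that TPM divides by was 54.1% and 53.5% of the annotated length in the 2 libraries, against 88.6% and 88.4% for all nuclear protein-coding genes.

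The level was uneven. In replicate 1, 8 members held 50% of all member counts, and in replicate 2, 9 did. The top 5 held 39.3% and 36.1% of them.

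**Figure D1:**
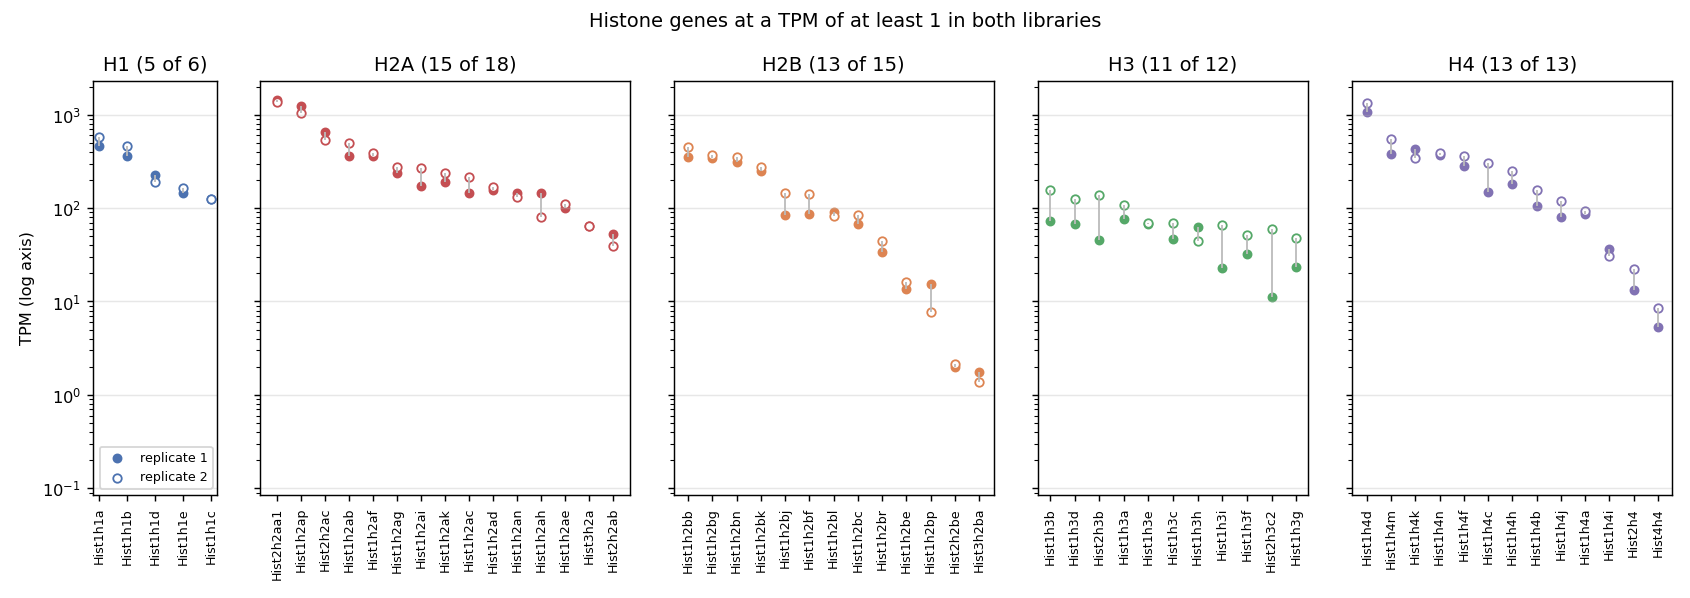
Deposited TPM (log axis) of the 57 members detected in both libraries, by histone class and ordered by mean TPM; filled points are replicate 1, open points replicate 2, and grey lines join them. Single H2A and H4 genes lie near or above a TPM of 1000, and the highest H3 value is 154, for Hist1h3b in replicate 2.

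H2A held the largest class share of the members' TPM, 45.1% in replicate 1 and 39.3% in replicate 2 (42.2% ± 4.10). H4 followed with 27.4% ± 1.83, H2B with 14.0% ± 0.476, H1 with 10.9% ± 0.105 and H3 with 5.55% ± 1.69. On the TPM scale this order was the same in both libraries and no neighbouring classes overlapped. On counts with no length correction, H1, whose coding sequences are longer than those of the core histones, moved to the second place with 20.4% ± 0.118, ahead of H4 with 18.6% ± 1.66; in replicate 2 the gap was small (20.3% against 19.8%). H2A came first and H3 last in both libraries on each of the 3 scales plotted.

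**Figure D2:**
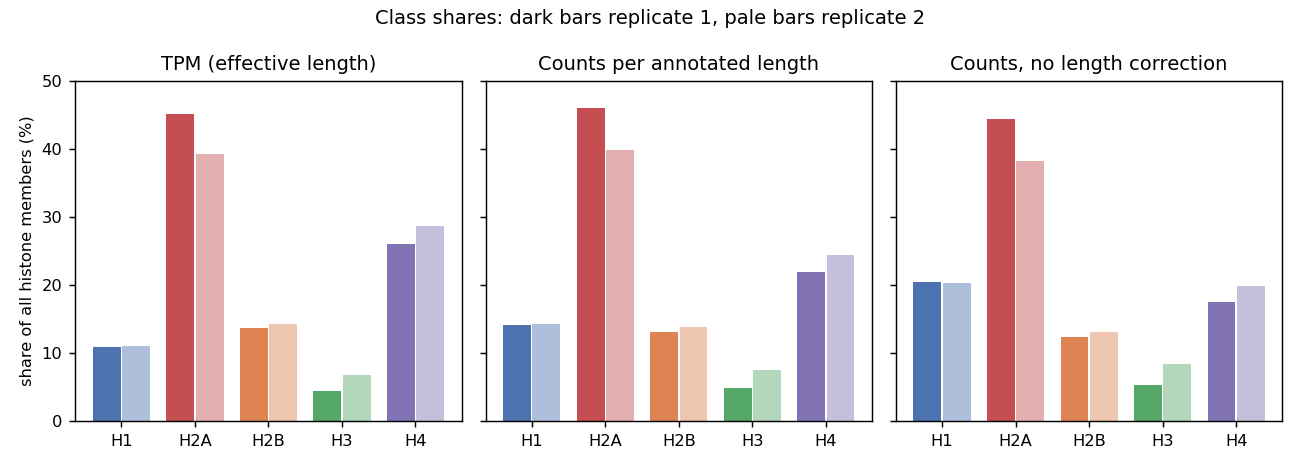
Share of the members' total held by each histone class (%), as deposited TPM, as counts per annotated length and as counts with no length correction; dark bars are replicate 1, pale bars replicate 2. H2A leads and H3 is last on every scale, whereas H1 goes from 10.9% of TPM to 20.4% of counts.

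In a nucleosome H2A pairs with H2B and H3 with H4 in equal numbers. At the RNA level the summed TPM of H2A was 3.31 times that of H2B in replicate 1 and 2.75 times in replicate 2 (3.03 ± 0.397). The summed TPM of H3 was 0.167 of that of H4 in replicate 1 and 0.236 in replicate 2 (0.201 ± 0.0485). Per annotated length the ratios were 3.20 ± 0.441 and 0.264 ± 0.0629, so both stayed on the same side of 1. These sums hold the members only and leave out the replication-independent histone genes described below. For H3 those genes (H3f3a, H3f3b and Cenpa) summed to a TPM of 740 and 509, beside 529 and 935 for the members. For H2A they summed to 440 and 335, beside 5484 and 5446. The ratios are therefore not those of all H3 or all H2A mRNA.

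H1, the linker histone, binds the DNA between nucleosomes, and its 6 genes encode 6 different proteins. Hist1h1a (chr13:23763666-23764406) had the highest level of the class, at 459 TPM in replicate 1 and 584 TPM in replicate 2. Hist1h1b (chr13:21779883-21780625) was next with 365 and 459. The ranges of these 2 genes met at 459, so they were apart within each library but not beyond the spread between libraries. Hist1h1d stood at 224 and 191, Hist1h1e at 145 and 166, and Hist1h1c at 127 and 124. Hist1h1c has an annotated transcript of 1560 bases that runs 840 bases past its stem-loop, and on counts (15449 and 22264) it stood above Hist1h1d (10659 and 13278), which it trailed on TPM. Hist1h1t, the testis H1, had 0 counts in replicate 1 and 25 in replicate 2. A count of 0 was given a floor of 3 counts, which for this gene in replicate 1 equals a TPM of 0.0649; such floors cover counting error only.

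H2A was led by 3 genes. Hist2h2aa1 (chr3:96245497-96246082) reached 1442 TPM in replicate 1 and 1382 TPM in replicate 2, the highest of all members and rank 10 among nuclear protein-coding genes. Hist1h2ap (chr13:21833026-21833507) had 1250 and 1038. Hist2h2ac (chr3:96220361-96220880) had 659 and 542. The first and the second did not overlap, and neither did the second gene and Hist2h2ac. Hist1h2ab came next with 365 and 503, above Hist1h2af (359 and 389) in both libraries, though the ranges overlap. The lowest detected members were Hist3h2a (63.6 and 63.8) and Hist2h2ab (52.3 and 38.8), and the testis gene Hist1h2aa had no count in either library, where the floor would be a TPM of 0.192 and 0.132.

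The 18 H2A genes encode 9 distinct proteins, by translation of the reference coding sequences. A single protein was encoded by 9 of the genes, from Hist1h2ab to Hist1h2ap, with a summed TPM of 2570 and 2714 (46.9% and 49.8% of H2A). The protein of Hist2h2aa1 and Hist2h2aa2 differed from it at 4 of 130 residues and took 26.4% and 25.4%. Hist2h2aa1 and Hist2h2aa2 have the same coding sequence, and Hist2h2aa2 was given a TPM of only 2.90 and 0.33. Hist1h2ap and Hist1h2ao also share a coding sequence, and Hist1h2ao was given 0.12 and 0.36. In both pairs the deposited estimate placed nearly all reads on 1 copy; the sources used here do not give how reads of near-identical copies were divided, so the level of each copy is uncertain and the sums (1445 and 1383, and 1250 and 1039) are the firmer values.

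H2B had a flatter order. Hist1h2bb (chr13:23746734-23747241) reached 353 TPM in replicate 1 and 452 TPM in replicate 2. Hist1h2bg had 347 and 370, Hist1h2bn had 312 and 357, and all 3 ranges overlap. Hist1h2bk was lower, with 250 and 279. At the low end, Hist2h2be had 1.97 and 2.14, Hist3h2ba 1.74 and 1.36, and the testis gene Hist1h2ba 0 and 0.05 (0 and 1.18 counts). With 1 deposited coding transcript taken per gene, the 15 genes encode 9 distinct proteins. By this choice 5 of them (Hist1h2bf, Hist1h2bj, Hist1h2bl, Hist1h2bn and Hist1h2br) share 1 protein with a summed TPM of 607 and 769. The transcript taken for Hist1h2br, coding for 126 residues, had 0 counts in both libraries. All counts of that gene (TPM of 34.0 and 44.0) lay on a form coding for 134 residues, so its part of the sum is not of the shared protein. The transcript taken for Hist1h2bq had 0 counts in replicate 1. Hist1h2bp is given as a pair of transcripts: the deposited tables put 72.2% and 63.2% of its level on the 469-base form with a stem-loop and 27.8% and 36.8% on a spliced 621-base form in which no stem-loop was found.

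H3 was the class of lowest level, and the one in which the libraries differed most. Hist1h3b (chr13:23752267-23752886) reached 72.1 TPM in replicate 1 and 154 TPM in replicate 2. Hist1h3d had 66.9 and 125, Hist2h3b 46.0 and 139, and Hist1h3a 76.9 and 107. Hist1h3b was above Hist1h3d and Hist2h3b in both libraries, while the order of the other pairs changed between libraries, and all 4 ranges overlap. The 12 genes encode 2 proteins that differ at 1 of 136 residues. The protein shared by 8 genes, among them Hist1h3b and the 3 Hist2 H3 genes, had a summed TPM of 343 and 670, and that of Hist1h3a, Hist1h3g, Hist1h3h and Hist1h3i had 186 and 265. Hist2h3c1 and Hist2h3c2 share a coding sequence: Hist2h3c1 was listed at 0 in both libraries and Hist2h3c2 at 11.2 and 60.3.

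All 13 H4 genes encode 1 protein of 103 residues, and all 13 were detected. Hist1h4d (chr13:23581598-23582735) reached 1056 TPM in replicate 1 and 1338 TPM in replicate 2, 33.3% and 33.7% of the class. Hist1h4m had 381 and 551, Hist1h4k 425 and 345, and Hist1h4n 370 and 389, 3 ranges that overlap. Hist1h4m and Hist1h4n share a coding sequence and summed to 751 and 939. The lowest were Hist2h4 (13.3 and 22.5) and Hist4h4 (5.31 and 8.44), the genes of the class outside the Hist1 cluster; both have long annotated transcripts, of 1630 and 2879 bases.

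TPM and counts ordered the members differently where annotated lengths differed. The 10 members annotated at over 1000 bases had a median of mean TPM of 16.4, against 123 for the other 54, while their median mean counts were 3305 and 4341. Hist3h2a, annotated at 2146 bases, had 11164 and 16475 counts with a TPM of 63.6 and 63.8, and Hist2h2ab, annotated at 444 bases, had 1063 and 1150 counts with a TPM of 52.3 and 38.8.

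The genes lie in 4 clusters. The Hist1 cluster on chromosome 13 has 52 members and held 82.4% ± 1.83 of the members' TPM. Hist2 on chromosome 3 (chr3:96219865-96269141, 9 members) held 17.1% ± 1.80, most of it from Hist2h2aa1 and Hist2h2ac. Hist3 on chromosome 11 (2 members) held 0.504% ± 0.0473 and the single Hist4 gene on chromosome 6 held 0.0523% ± 0.0121. All H1 genes lie in Hist1, and H2A was the class with the largest part outside it.

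Gaps of over 100000 bases divide Hist1 into 4 stretches. The first (chr13:21715763-21837530) has 17 members, 15 of them detected, and held 31.0% ± 1.65 of the members' TPM. The second (chr13:22035164-22043676) has 5 members, all detected, and held 6.03% ± 0.235. The third stretch (chr13:23531050-23764406) has 28 members, 27 of them detected, and held 45.3% ± 3.72. The last (chr13:23933773-23934851) holds only the testis genes Hist1h2ba and Hist1h2aa, neither of them detected. Genes of high and low TPM could lie side by side: in the third stretch Hist1h4d lay next to Hist1h2be, whose TPM was 13.5 and 16.4. Part of this contrast comes from length, as the deposited length in replicate 1 was 393 bases for Hist1h4d and 2387 for Hist1h2be. On counts Hist1h4d had 16763 and 30897 and Hist1h2be 2666 and 4787. Hist1h2be is annotated over a long interval (chr13:23583670-23621124, minus strand) that overlaps Hist1h1e, so reads in that overlap may belong to either.

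**Figure D3:**
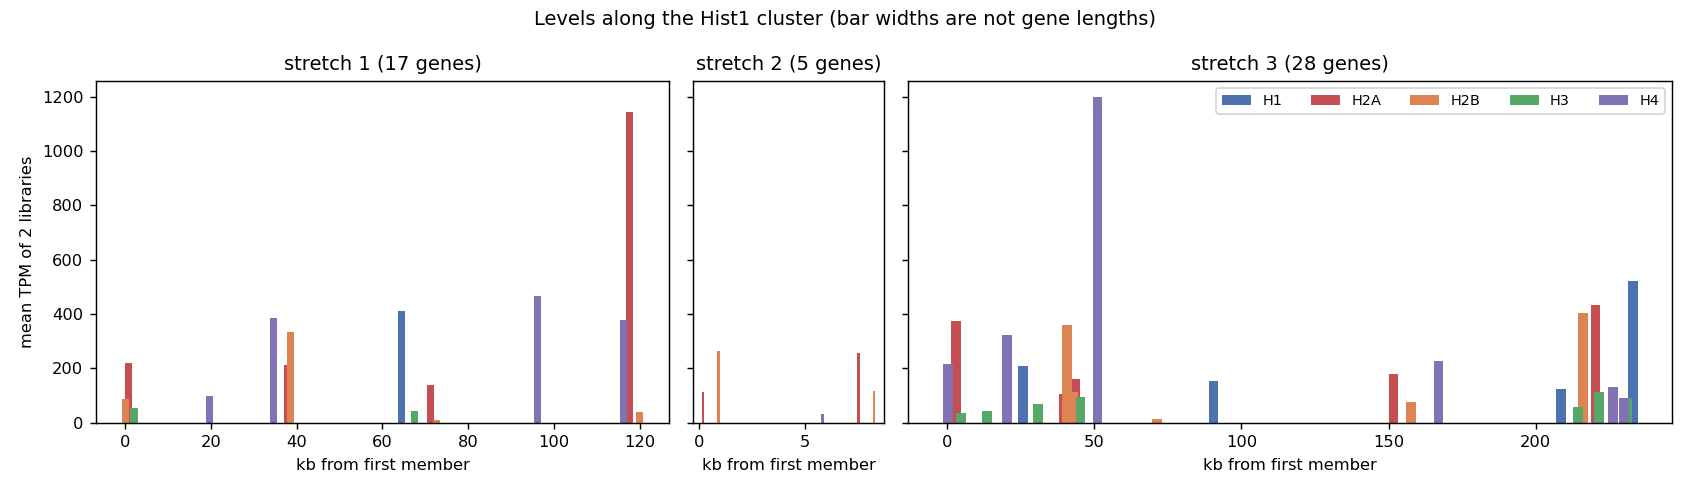
Mean TPM of the 2 libraries for the members in the first 3 stretches of the Hist1 cluster, against distance in kb from the start of the first member of each stretch, coloured by histone class. Hist1h2ap in the first stretch (1144) and Hist1h4d in the third stretch (1197) stand above their neighbours.

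H2A and H2B genes often lie head to head and share the DNA between their starts. There were 12 such pairs on opposite strands with starts 176 to 306 bases apart, and both genes were detected in 10. The H2A gene had the higher TPM in both libraries in 7 pairs and the H2B gene in 3, with the same split per annotated length, and in no pair did the libraries disagree. In the pair on Hist2, Hist2h2ac exceeded Hist2h2be by 8.18 ± 0.28 on the log2 scale of TPM. Hist1h2ap exceeded Hist1h2br by 4.88 ± 0.45, and Hist1h2an (TPM of 144 and 132) exceeded Hist1h2bp (15.6 and 7.79) by 3.65 ± 0.61. These gaps were wide next to the spread between libraries, and Hist2h2be and Hist1h2br are 2 of the members with long annotated transcripts.

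In 4 further pairs the H2A gene led by less. The mean log2 difference was 1.32 ± 0.56 for Hist1h2ai over Hist1h2bl, 1.22 ± 0.16 for Hist1h2ac over Hist1h2bc, 1.21 ± 0.41 for Hist1h2ag over Hist1h2bj and 0.56 ± 0.42 for Hist1h2ad over Hist1h2bf. The H2B gene led in the remaining 3. Hist1h2bg exceeded Hist1h2ae (TPM of 99.1 and 112), for a log2 difference of H2A over H2B of -1.77 ± 0.06; Hist1h2bk exceeded Hist1h2ah (144 and 81.1), with -1.29 ± 0.70; and Hist1h2bn exceeded Hist1h2ak (191 and 235), with -0.65 ± 0.07.

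**Figure D4:**
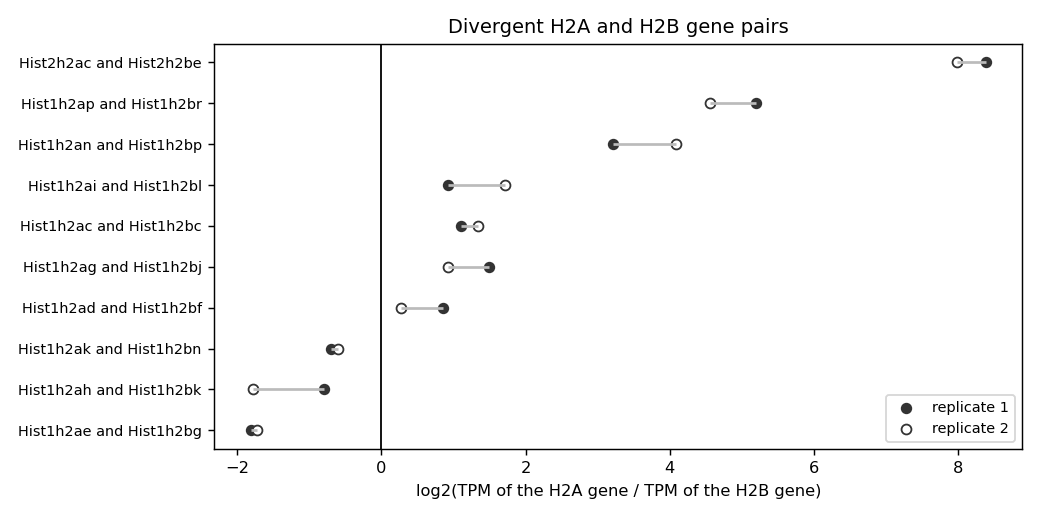
Log2 of the TPM of the H2A gene over that of the H2B gene in the 10 divergent pairs with both genes detected; filled points are replicate 1, open points replicate 2, and the vertical line marks equal levels. The points of each pair lie on 1 side of the line, from 8.18 for Hist2h2ac and Hist2h2be to -1.77 for Hist1h2ae and Hist1h2bg.

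RefSeq (assembly GRCm38.p6) gave promoter windows, from 250 bases before to 50 after a start, for 58 members in 59 windows. Windows of a divergent pair overlap, so they are not separate observations. Shown are the 150 bases before the start of a divergent pair, 1 window for each direction, and before Hist1h3d and Hist1h4d, an H3 and an H4 gene of high level, 5′ to 3′ toward the gene, with matches to the motifs below in capitals.
Hist1h2ae (chr13:23571221-23571370, minus strand): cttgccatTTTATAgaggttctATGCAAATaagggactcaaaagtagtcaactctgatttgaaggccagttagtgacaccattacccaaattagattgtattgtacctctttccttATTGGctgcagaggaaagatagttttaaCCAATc
Hist1h2bg (chr13:23571250-23571399, plus strand): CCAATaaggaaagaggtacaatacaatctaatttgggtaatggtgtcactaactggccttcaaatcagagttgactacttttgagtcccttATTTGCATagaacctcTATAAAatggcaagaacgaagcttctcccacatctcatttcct
Hist1h3d (chr13:23575613-23575762, plus strand): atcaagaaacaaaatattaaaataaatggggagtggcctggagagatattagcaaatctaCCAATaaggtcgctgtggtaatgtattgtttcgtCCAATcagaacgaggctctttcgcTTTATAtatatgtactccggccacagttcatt
Hist1h4d (chr13:23581418-23581567, plus strand): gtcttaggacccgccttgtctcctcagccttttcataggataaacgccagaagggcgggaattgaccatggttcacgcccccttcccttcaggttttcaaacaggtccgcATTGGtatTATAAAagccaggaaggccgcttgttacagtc

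The motifs were searched in the 300-base windows on both strands. CCAAT, the NF-Y box, was in 50 of 59 member windows (84.7%) and in 37.4% of all 32851 promoter windows. It was in all 47 windows of H1, H2A, H2B and H3 genes and in 3 of 12 of H4. TATAAA, the TATA box, was in 59.3% of member windows and 13.6% of all. ATTTGCAT, the octamer bound by POU factors, was in 20.3% against 1.74% of all, and GCGCGAAA, an E2F motif, in 15.3% against 0.323%. The last 2 motifs were found in windows of H2A (7 and 5 of 17) and H2B genes (5 and 4 of 14) and in none of the 28 of H1, H3 and H4. A match is a run of letters and was not tested as a site; the start RefSeq gives lay within 200 bases of the GENCODE start in 57 of the 59 windows.

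The level in replicate 2 was compared with that in replicate 1 as the log2 ratio of CPM (counts divided by library size) scaled by TMM (trimmed mean of M-values), with 0.1 added, for genes with at least 20 counts over both libraries. Of the 60 members that passed, 54 had a ratio above 0, and the median was 0.64, against a median of 0.0087 and 50.8% above 0 for all 11901 nuclear protein-coding genes that passed. The summed scaled counts of the members were 1.43 times as high in replicate 2. By size, 12 members were more than 2-fold higher in replicate 2, or 20.0%, against 9.84% of all genes, and 1 was more than 2-fold lower, against 11.1%. On the deposited TPM the median of the members was 0.30 and that of all genes -0.31; nuclear protein-coding genes held 25.5% of all TPM in replicate 1 and 20.6% in replicate 2.

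**Figure D5:**
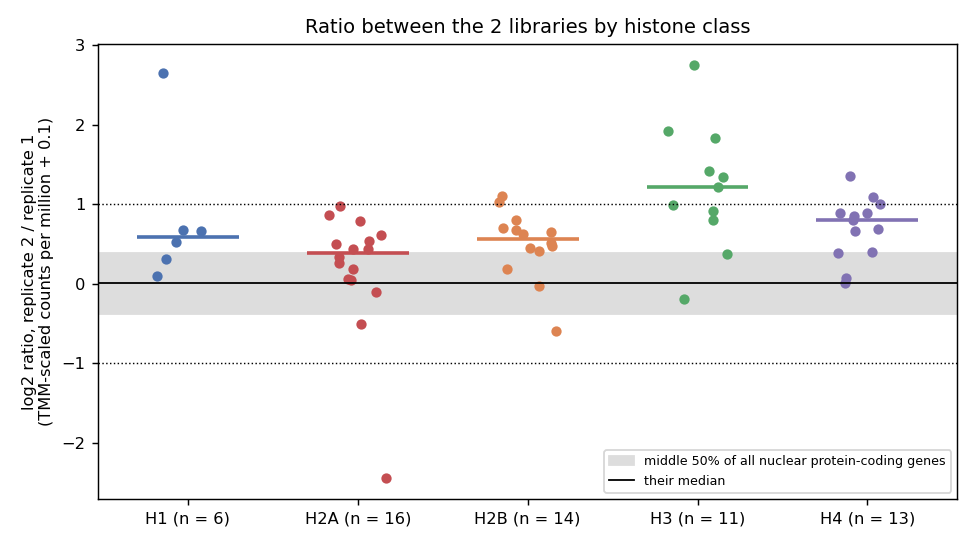
Log2 ratio of replicate 2 over replicate 1 (TMM-scaled CPM + 0.1) for the 60 members that passed the count filter, by class; short bars are class medians, the grey band holds the middle 50% of all nuclear protein-coding genes, and dotted lines mark 2-fold. The H3 median (1.22) is the highest and 1 H2A gene, Hist2h2aa2, lies far below the rest.

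By class the median log2 ratio was 0.59 for H1, 0.39 for H2A, 0.57 for H2B, 1.22 for H3 and 0.80 for H4. The summed scaled counts were 2.27 times as high in replicate 2 for H3, 1.62 times for H4, 1.51 times for H2B, 1.41 times for H1 and 1.23 times for H2A. Of the H3 genes that passed, 6 of 11 were more than 2-fold higher in replicate 2. No H2A gene of 16 was. Outside H3, 6 of 49 were (12.2%), against 9.84% of all genes, a share that depends on the count filter. With at least 100 counts in each library, 2.97% of all genes were more than 2-fold higher. Under that filter 2 of 12 H2B and 3 of 13 H4 genes were, and 0 of 5 H1 and 0 of 15 H2A genes. On deposited TPM, 5 H3 genes and 2 members outside H3 were more than 2-fold higher, against 6.60% of all genes.

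Hist2h3c2 had 814 counts in replicate 1 and 6438 in replicate 2 (log2 ratio 2.76), the largest ratio among members with counts in both libraries. Hist2h3b followed with 1116 and 4919 counts (1.92), and Hist1h3i with 399 and 1673 (1.84), all H3 genes. Both detected H3 genes of the Hist2 cluster thus stood above the H3 median. Hist1h3b had a log2 ratio of 1.43 (2615 and 8183 counts). Hist1h1t, with 0 and 25 counts, was at least 7.16-fold higher in replicate 2, taking 3 counts as the floor in replicate 1; with that gene at its bound the median of the members was still 0.64. Of the H4 genes, Hist1h4c was farthest apart, with 2379 and 7092 counts (1.36, or a TPM of 148 and 304).

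Of the 3 leading H2A genes, Hist2h2aa1 had a log2 ratio of 0.27, Hist1h2ap of 0.06 and Hist2h2ac of 0.04. Of the 6 members with a ratio below 0, Hist2h2aa2 (80.8 and 13.4 counts, -2.44) is the copy with the coding sequence of Hist2h2aa1, and summed with it the ratio was 0.26. Hist1h2bp had -0.60, Hist1h2ah -0.50, Hist1h3h -0.19 and Hist2h2ab -0.11. Hist3h2ba had -0.02, on 62.0 and 71.0 counts.

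Other gene lists were compared between the libraries in the same way. All 20 S-phase genes listed (DNA replication factors and cell-cycle genes such as Pcna, the sliding clamp) were detected. Their summed scaled counts were 1.20 times as high in replicate 2, and 16 of the 20 had a ratio above 0, with a median of 0.23. Rrm2, a subunit of the enzyme that makes deoxyribonucleotides, had 0.92, and Pcna had -0.01. All 7 genes listed as MEP markers (Kit, Gata1, Klf1, Zfpm1, Epor, Tfrc and Car1) were detected. Of these, 6 had a ratio above 0 and Kit had -0.08, with a median of 0.45. The summed scaled counts of these markers were 1.26 times as high in replicate 2. On deposited TPM the MEP markers summed to 935 and 919, and the S-phase genes to 1111 and 1016. Car1 alone had a TPM of 723 and 708, so the sums of the MEP list follow mostly that gene.

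Markers of other cells also moved. The 5 lymphoid markers had a summed TPM of 0.21 in replicate 1 and 11.2 in replicate 2, none was detected in both, and Cd3e was at 0 in both; Gzma, a granule protease of cytotoxic cells, had 0 and 792 counts. Granulocyte and monocyte markers summed to 55.5 and 101 (3 of 5 detected), but the rise was in S100a8 and S100a9 (log2 ratios of scaled counts 1.47 and 1.28), whereas Mpo (-1.90) and Elane (-1.80) were lower in replicate 2 and the summed scaled counts of the list were 1.11 times as high. Megakaryocyte markers summed to 45.5 and 18.3 (3 of 5). Log2 ratios of scaled counts were below 0 for Itga2b (-1.28), Pf4 (-1.09) and Gp1bb (-1.08). They were above 0 for Vwf (0.16) and Gp9 (2.10, on 23 and 130 counts). Stem cell markers summed to a TPM of 21.3 and 3.85 (2 of 4, with Ly6a at 0 in both). Cd34 was at 18.3 and 1.44. The part of these cells, of the S-phase genes and of the size range in the histone ratio was not tested. In bulk RNA, more cells in S phase and more histone RNA per cell cannot be told apart.

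Replication-independent histones, many of which are made throughout the cell cycle from polyadenylated mRNAs, were compared with the members in H1, H2A and H3. H3f3a and H3f3b, the genes of the replacement histone H3.3, had TPM of 466 and 327, and of 241 and 153. With Cenpa, the centromeric H3, they held 58.3% of all H3 TPM in replicate 1 and 35.2% in replicate 2, so the larger source of H3 mRNA changed between the libraries on this scale. On counts per annotated length the share was 65.5% and 42.8%, and on counts 79.9% and 61.4%. The log2 ratio of scaled counts was -0.03 for H3f3a and -0.29 for H3f3b, beside a median of 1.22 for the H3 members that passed.

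In H2A the replication-independent part was small: H2afz, H2afv, H2afx, H2afy, H2afy2 and H2afj together held 7.42% and 5.80% of the class TPM. H2afz, the variant found at gene starts, had a TPM of 284 and 196. H1f0 and H1fx held 0.856% and 0.369% of H1. Of the 17 replication-independent genes listed, 9 were detected.

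Of 36 genes with a row that act in transcription, 3′-end formation or decay of histone mRNA, 33 were detected and 35 passed the count filter. Of those that passed, 22 had a ratio above 0. None of them was more than 2-fold higher in replicate 2, against 9.84% of all genes, and 1, Zfp473, was more than 2-fold lower, against 11.1%. Slbp, which binds the stem-loops shown above, had a TPM of 92.4 and 78.2 (log2 ratio 0.06). Npat, which activates histone gene transcription, had 9.52 and 6.97 (-0.08). Casp8ap2, a partner in histone locus bodies, had 41.8 and 12.4 in TPM but 10260 and 10588 counts, a log2 ratio of only -0.17. Lsm10 and Lsm11, the proteins particular to the U7 snRNP, were low, with 2.80 and 3.63 and with 0.61 and 1.37.

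Zfp473, a zinc-finger protein that binds the U7 snRNP, had 85 counts in replicate 1 and 0 in replicate 2, at least 33.0-fold lower in replicate 2 against a floor of 3 counts. Rnu7, the U7 RNA itself, was listed at 0 in both; its annotated length is 62 bases and its effective length 0, so these tables carry no level for it. The genes of highest level on the list were Snrpe (135 and 73.7), Snrpf (87.8 and 95.7), Slbp and Snrpb (52.7 and 58.8), and the 3 Snrp genes encode Sm proteins that spliceosomal snRNPs also use.

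All 25 histone chaperones with a row were detected; these proteins escort new histones to DNA. Npm1 had a TPM of 1712 and 1344, Set 607 and 326, Nap1l1 166 and 156, and Nasp, which binds H1 and H3, 159 and 135. The median log2 ratio of the list was 0.08, with 15 of 25 above 0. Asf1b, a chaperone of new H3 and H4, was the 1 gene of the 25 more than 2-fold higher in replicate 2 (706 and 1649 counts), against 9.84% of all genes. Its log2 ratio of 1.0006 lay barely past the 2-fold limit.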

How the data were processed

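Total RNA of 2 MEP libraries was measured. The authors deposited 1 table of genes and 1 of transcripts for each library, with an expected count (estimated, not normalized), a TPM, a posterior mean TPM and, for transcripts, the percent of the gene's level, per the file headers. Genome build mm10 and GENCODE annotation M4 were used, per the text files deposited with the tables; the sources used here do not name the program. Totals over Ensembl gene rows were 39919858 and 48043009 expected counts.

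Gene IDs were matched without version to GENCODE M21. The members, gene lists and motifs were chosen with earlier results of these data known. Levels between genes are deposited TPM. Ratios between libraries use expected counts scaled by TMM (edgeR 4.0.16 in R 4.3.3; DESeq2 1.42.0 size factors as an alternative), a pseudocount of 0.1 and a minimum of 20 counts over both libraries. With 1 library per replicate there was no test; called means over 2-fold. The scaling was tested on simulated data. Named in full were the 4 highest members of each class, all of Hist2, Hist3 and Hist4, testis members, the 5 largest ratios in each direction, detected divergent pairs and copies of identical coding sequence; of the lists, the named processing factors and the 4 highest; genes named beyond this rule were chosen after their values were seen. Stem-loops came from GENCODE M21 transcripts, of which 44 members have the deposited version and 20 another. The tables do not state a strand setting, so overlapping genes are uncertain.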

Additional observations from a re-analysis of the deposited data

Results flagged for a closer look

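Reads were also assigned to histone pseudogene rows, which lie outside the protein-coding members. Hist3h2bb-ps, a processed pseudogene of the H2B family, had 415.96 counts in replicate 1 and 586.0 in replicate 2, or a TPM of 18.7 and 18.1, above the TPM of the protein-coding Hist3h2ba in both libraries. Hist1h2al had 34.43 and 22.98 counts, a TPM of 2.36 and 1.08. Both exceeded the 3 counts that a count of 0 allows, and Hist1h2aj had 0 in both. The sources used here do not give how reads of similar copies were divided, and whether these reads come from the pseudogenes was not tested.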

How the results depend on the processing

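Of 68 alternatives, 48 left the value within the limits set and 20 moved it. A reversal was defined only for the median log2 ratio of the members, and none occurred there. For the count share and class shares the limit was the SD, which leaving out 1 library cannot exceed. Those alternatives are therefore not a check. The members' share was 1.30% of TPM in place of counts. With deposited TPM or posterior mean TPM, 7 of 60 members were over 2-fold higher in replicate 2, against 6.60% and 5.37% of all genes. The median log2 ratio of the members was 0.30 and 0.29. With at least 100 counts in each library, or identical coding sequences summed, 0 members were over 2-fold lower, against 4.03% and 11.1% of all genes. No gene was tested, so there is no p-value. Class shares moved with the length used: per annotated length H1 held 14.2%, H2B 13.5% and H4 23.2%; as counts 20.4%, 12.8% and 18.6%; per length up to 5 bases past the stem-loop, an alternative chosen after seeing the data, 14.6%, 12.5% and 23.5%. Without its highest gene H1 held 7.22% (Hist1h1a), H2A 35.1% (Hist2h2aa1), H2B 11.2% (Hist1h2bb) and H4 20.02% (Hist1h4d). Over single libraries the share of counts was 0.830% to 1.14%, detected members 57 to 58, and class shares 10.851% to 11.0% (H1), 39.3% to 45.1% (H2A), 13.6% to 14.3% (H2B), 4.35% to 6.75% (H3) and 26.1% to 28.6% (H4). Ratios need both libraries, so none was left out there. No paired analysis was possible because there is 1 group. Depth was high for most members; those under 100 counts in a library are limited by counting error.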
